A study of Drosophila melanogaster with 2 samples.

Results

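The regions described here are intronic ChIP-seq peaks of GFP-tagged dimm far from any transcription start site (TSS). They were taken from the list of peaks that the authors marked conservative, after overlapping peaks were joined and the summit of highest signal was kept. A region was a member when its summit lay inside the span of an annotated gene, in no annotated exon, and more than 2000 bp from the nearest annotated TSS, with transposable elements left out of the annotation. Of 1739 joined regions, 367 (21.1%) met this rule. Another 283 were intronic and over 500 bp but at most 2000 bp from a TSS, 272 were intergenic, 63 were exonic and 754 were promoter regions within 500 bp of a TSS. All 367 summits lay in an intron of an annotated transcript of the gene that held them.

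Chromatin immunoprecipitation and sequencing (ChIP-seq) was done with an antibody to GFP on embryos of a transgenic Drosophila melanogaster strain, dimm-GFP, in which the dimm protein was fused to eGFP. The embryos were 0 to 24 hours old and were used as whole organisms, so every embryonic tissue was mixed and the cells in which a region was bound cannot be told. There was 1 group with 2 biological replicates, no second condition and no control library among the data used here, so whether a region depends on dimm was not tested. Whether the fusion was driven by the gene's own regulatory sequence is not given in the labels used here.

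The dimm gene (dimmed) encodes a basic helix-loop-helix (bHLH) factor known for its part in the differentiation of peptide-secreting neuroendocrine cells. Factors of this family bind as dimers, typically to E-boxes, short sites of the form CANNTG. Long introns of developmental genes in Drosophila are known to hold many enhancers, which can act on a promoter at a distance.

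Every value called a signal is the one that the authors deposited for a peak, with a normalization that is not given in the sources used here. It serves to rank regions within a list. For each region, the signal in the list from both replicates is given first, followed by that of the strongest overlapping candidate peak in each replicate's own ranked list. A region was counted as found in a replicate when it overlapped that replicate's own list of peaks that reached an irreproducible discovery rate (IDR) of 0.01, a low value of which means that the ranks of a peak agreed between 2 sets of peaks. All coordinates are on build dm6, which is the Release 6 genome. Library depth is unknown.

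The windows at the summits of the strongest members are shown first, because base content at the summit differed from that beside it in most members, as given further on. Each window holds the summit base and 50 bp on each side, plus strand, from the Release 6 genome. Capitals mark every 6-mer of the 31 classes that were called higher at member summits than beside them by the test given below. At least 1 such 6-mer was found in 94.3% of member windows at the summit and 77.4% of those beside it. The share was 95.6% at promoter summits and 82.6% in windows sampled from all intronic sequence over 2000 bp from a TSS. The classes were picked from these same member windows. These are the strongest members of the kinase genes Tlk and Raf, of Gug, Hr4, Eip63E, Dys and fz, and of 3 genes known by CG numbers, followed by a GC-rich window in CG8745.

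Tlk, chrX:3742175-3742275: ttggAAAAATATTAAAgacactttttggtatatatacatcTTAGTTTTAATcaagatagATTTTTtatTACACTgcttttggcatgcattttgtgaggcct
CG32486, chr3L:3060745-3060845: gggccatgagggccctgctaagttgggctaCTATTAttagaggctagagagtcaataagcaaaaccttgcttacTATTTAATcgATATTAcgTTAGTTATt
Raf, chrX:2297670-2297770: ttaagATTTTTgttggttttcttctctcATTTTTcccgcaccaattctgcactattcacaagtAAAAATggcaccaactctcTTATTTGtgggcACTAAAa
Raf, chrX:2300652-2300752: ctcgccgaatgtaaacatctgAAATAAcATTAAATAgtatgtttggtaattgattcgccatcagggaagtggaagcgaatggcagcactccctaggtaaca
CG32264, chr3L:3785178-3785278: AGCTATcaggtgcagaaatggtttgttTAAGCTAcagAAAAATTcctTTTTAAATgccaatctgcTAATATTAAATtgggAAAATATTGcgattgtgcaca
CG33158, chr3L:16480548-16480648: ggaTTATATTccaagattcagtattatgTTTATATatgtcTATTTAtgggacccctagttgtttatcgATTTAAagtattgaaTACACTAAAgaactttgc
Gug, chr3L:8458309-8458409: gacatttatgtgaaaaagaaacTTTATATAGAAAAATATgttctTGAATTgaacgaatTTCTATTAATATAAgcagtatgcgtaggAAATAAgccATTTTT
Hr4, chrX:1947685-1947785: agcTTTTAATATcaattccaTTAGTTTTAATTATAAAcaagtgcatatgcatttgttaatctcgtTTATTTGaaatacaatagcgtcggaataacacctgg
Eip63E, chr3L:3517998-3518098: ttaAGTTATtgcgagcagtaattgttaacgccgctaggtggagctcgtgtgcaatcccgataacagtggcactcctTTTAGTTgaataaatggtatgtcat
Dys, chr3R:19499200-19499300: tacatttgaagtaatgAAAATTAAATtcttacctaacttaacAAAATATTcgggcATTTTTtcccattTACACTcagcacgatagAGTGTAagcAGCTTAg
fz, chr3L:14304023-14304123: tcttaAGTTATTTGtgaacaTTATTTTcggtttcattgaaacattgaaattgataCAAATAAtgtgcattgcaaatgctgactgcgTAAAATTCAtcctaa
CG8745, chr3L:13862542-13862642: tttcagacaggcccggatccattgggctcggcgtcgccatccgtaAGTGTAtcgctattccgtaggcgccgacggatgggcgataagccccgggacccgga

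The windows differed widely in base content. In the Gug window GC content was 24.8% and capitals covered 48.5% of the bases. The CG8745 window had 63.4% GC and capitals over 5.94% of its bases, and the Eip63E window, at 42.6% GC, had capitals over 12.9%.

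The strongest member lay in Tlk, the gene of the Tousled-like kinase, which acts in chromatin assembly. Its signal was 435, with 222 in replicate 1 and 217 in replicate 2, and it ranked 35 among all 1739 regions. It spanned chrX:3742126-3742301, and its summit lay 2328 bp from a TSS of Tlk. The second by signal lay in Hr3, which encodes a nuclear receptor of the ecdysone response, at 412 with 223 and 191 in the replicates (chr2R:10219983-10220161, summit 7892 bp from the nearest TSS), and also in the spans of CG12912 and CG46321. A member in CG32486 followed at 405, with 208 and 194 (chr3L:3060709-3060881). Signals in the replicates were close for each of these members.

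Raf, which encodes the MAP kinase kinase kinase that acts below receptor tyrosine kinases, held both the fourth and the sixth strongest member. The stronger had a signal of 384, with 209 and 179 in the replicates (chrX:2297627-2297816). The other had 301, with 162 and 148, and lay 5236 bp from a TSS of Raf (chrX:2300620-2300774). Both lay in the same exon-free stretch of 25404 bp. Between them by signal came a member in CG12769 at 336, with 200 and 148.

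The next members by signal follow. sbb (scribbler), a corepressor gene, held one of 290, with 148 and 137. CG32264 held one of 267, with 130 and 138. A member at chr3L:16480484-16480651 lay in both CG33158 and aos, which encodes a secreted inhibitor of the EGF receptor, and had a signal of 266, with 130 and 138. Its nearest TSS was that of aos, 3052 bp away. Gug, the gene of the corepressor Atrophin, held one of 242, with 119 and 123. Hr4, another nuclear receptor gene of the ecdysone response, held one of 239, with 117 and 119. Eip63E, the gene of an ecdysone-induced kinase of the cyclin-dependent family, held one of 238, with 120 and 116.

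Of the 25 strongest members, 24 were found in both replicates' own lists, and the exception was the one in upSET, the gene of a SET-domain chromatin protein. It had a signal of 219 and 95.3 in replicate 2, and no candidate of replicate 1 overlapped it (chr3L:14005015-14005127). It was also absent from the list of both replicates that is not marked conservative. Further members of this rank lay in simj, the gene of a subunit of the NuRD chromatin complex (210, with 110 and 94.2), in Dys, the dystrophin gene (204, with 103 and 104), and in JIL-1, a histone kinase gene (204, with 109 and 98.5). A second member of Hr4 had 199, with 92.4 and 104. fz, the gene of the Wnt receptor Frizzled, held one of 197, with 92.3 and 102.

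The remaining members among the 25 were weaker, and of these the ones in CG8745 and mnb differed most between the replicates. The GC-rich member in CG8745 had a signal of 196, with 70.5 in replicate 1 and 124 in replicate 2. lncRNA:CR45668 held one of 192 (103 and 89.5) and CHES-1-like, a forkhead factor gene, one of 191 (92.4 and 97.5). A second member of sbb had 183 (104 and 78.9). Pli, the gene of the ubiquitin ligase Pellino, had one of 181 (82.6 and 94.8), and mnb (minibrain), a kinase gene, one of 181 (106 and 64.5). The last was in CG9328, at 173 (85.1 and 94.4).

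Over all members the signal ran from 49.5 to 435, with a median of 80.7. Promoter regions had a median of 107, intronic regions nearer to a TSS 93.1 and intergenic regions 82.1. Of the members, 7 were among the 100 strongest regions. A candidate of replicate 1 overlapped 361 members, with a median signal of 41.9, and a candidate of replicate 2 overlapped 366, with a median of 40.5. For the 360 with both values, the log2 ratio of replicate 1 to replicate 2 had a standard deviation of 0.400 across members, and the ratios ranged from -1.19 at a member in sim to 1.06 at one in lncRNA:CR32773. The member in sim, the master gene of midline cells of the nervous system, had signals of 23.9 and 54.6. Across the 360 members the replicates' signals had a Spearman correlation of 0.668 and, on the log2 scale, a Pearson correlation of 0.789. Both describe members chosen for agreement between these libraries, and regions are not independent replicates.

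**Figure D1:**
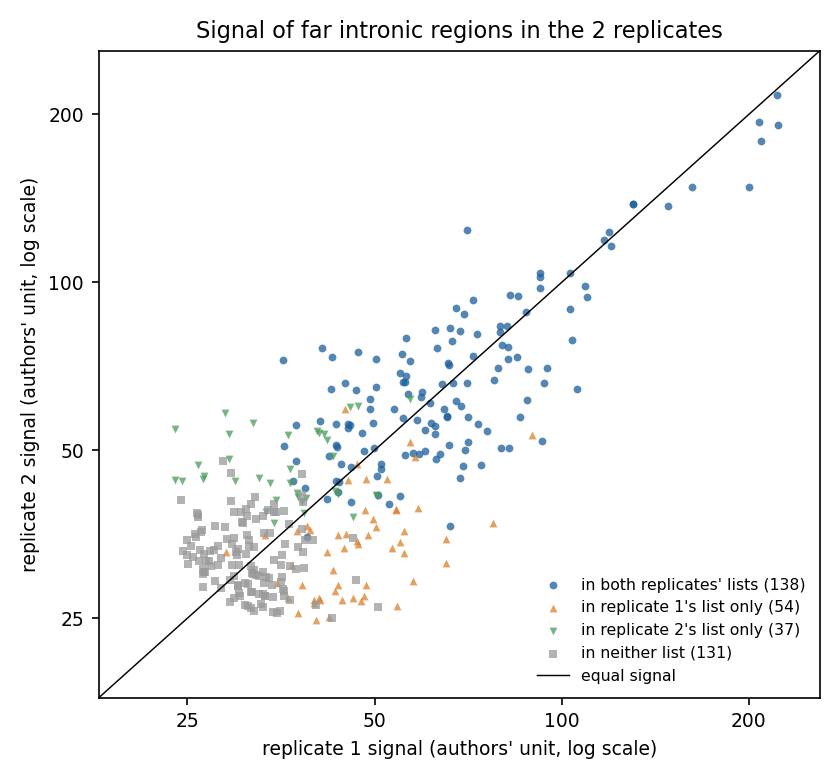
Signal of each member in replicate 1 (horizontal axis) and replicate 2 (vertical axis), in the authors' unit on log scales, for the 360 members with both values. Colours and symbols give the replicates' own thresholded lists that hold the member, and members found in both lists reach from 78.1 to 435 in signal of the joint list.

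Of the 367 members, 138 (37.6%, 95% Wilson interval 32.8 to 42.7%, counting error only) were found in both replicates' own lists. Another 54 were found in replicate 1's list only, 39 in replicate 2's only and 136 (37.1%) in neither. Promoter regions were found in both lists more often, at 56.1% (423 of 754, interval 52.5 to 59.6%). This went with signal. Among members with a signal over 117, 95.7% were found in both lists, beside 97.4% of promoter regions in the same range of signal. Between 80.7 and 117 the shares were 52.2% and 49.3%, between 65.3 and 80.7 they were 2.20% and 1.49%, and below 65.3 they were 0% and 0%. At equal signal, then, the members and the promoter regions were found about equally often, with no test made. Most members had the usual peak width of 304 bp (334 of 367), and 319 were also in the list not marked conservative.

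The rule's limit of 2000 bp cut through a continuous range of distances. The members nearest to it lay in CG3764 (2004 bp, signal 124, with 64.1 and 65.6), lncRNA:CR44320 (2006 bp, 113, with 42.7 and 73.5) and Calx, a sodium-calcium exchanger gene (2019 bp, 59.9, with 33.3 and 27.4). The nearest regions left out lay in CG1677 (1995 bp, signal 68.9, with 29.8 and 35.6), pot (1978 bp, 102, with 55.4 and 41.7) and oys (1969 bp, 76.1, with 49.4 and 25.6). Signals on the 2 sides of the limit overlapped.

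Within the introns, members lay nearer to TSSs than the sequence that could hold them. Eligible sequence, that is, all bases inside a gene, in no exon and over 2000 bp from a TSS, came to 42.3 Mb and was sampled at 1 position every 500 bp. The median distance to the nearest TSS was 5467 bp for members and 8200 bp for eligible positions. Members were found at 13.1 per eligible Mb between 2000 and 3000 bp, 10.3 between 5000 and 10000 bp, 6.11 between 10000 and 20000 bp and 0.718 beyond 50000 bp, where there were 3. Candidate peaks of any rank did not thin out in the same way, with 974 per eligible Mb in the nearest bin, 1097 between 10000 and 20000 bp and 796 beyond 50000 bp. The share of candidates that reached an IDR of 0.01 was 1.42% in the nearest bin, 0.578% between 10000 and 20000 bp and 0.150% beyond 50000 bp. The decline was therefore in the share that reached the threshold rather than in the number of candidates. Sequence that can be mapped less well was not separated from the rest, and its part was not tested.

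**Figure D2:**
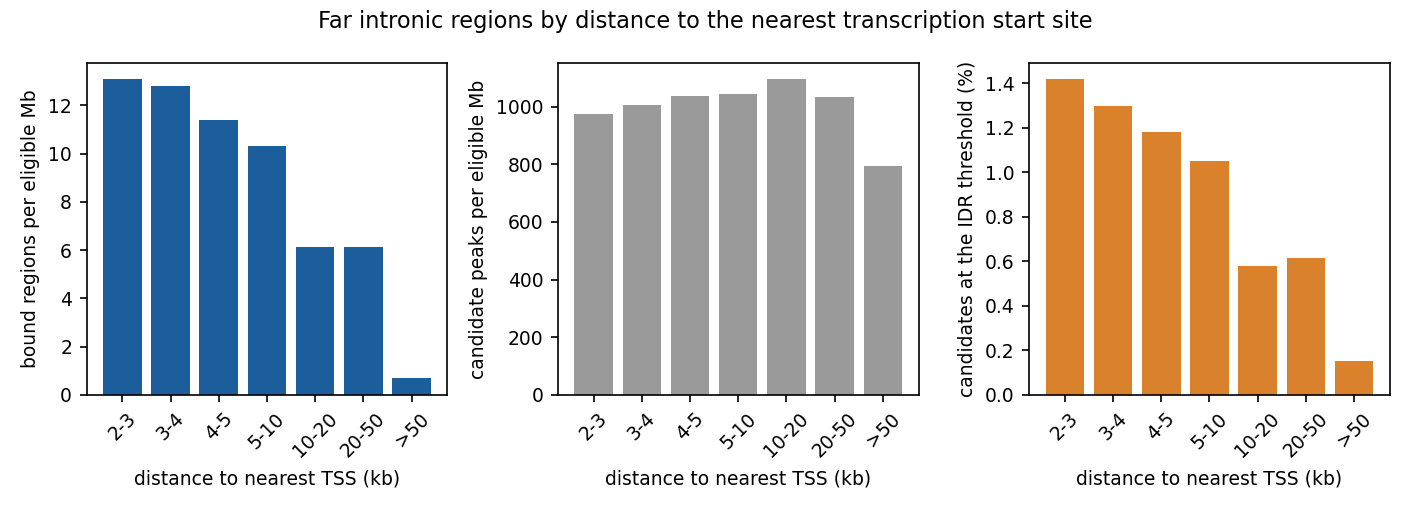
Members per Mb of eligible sequence (left), candidate peaks per Mb of eligible sequence (middle) and the share of candidates that reached an IDR of 0.01 (right), by distance to the nearest TSS in kb; all bars start at 0. Members fall from 13.1 to 0.718 per Mb from the nearest to the farthest bin, while candidates stay between 796 and 1097 per Mb.

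Over the whole class, 388 of 42989 candidates (0.903%, Wilson interval 0.817 to 0.996%) reached the threshold. The share was 4.42% at promoters, 2.84% in introns nearer to a TSS and 0.837% in intergenic sequence. These candidates were counted before joining and include some that are not in the conservative list. The interval of the far intronic class overlapped that of intergenic candidates (0.749 to 0.935%) and lay below those of promoter and nearer intronic candidates. Exonic candidates had the lowest share, 0.220%.

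A first intron of the host held 213 members (58.0%), and 36.5% of eligible positions lay in one. These shares were not matched for distance to a TSS, which was shorter for members, and were not tested. The nearest TSS belonged to a gene that held the summit for 243 members (66.2%). The median distance to the nearest exon was 2890 bp, close to the 2964 bp of eligible positions, and no member had its summit under 100 bp from an exon. The farthest member lay in Myo81F, a myosin gene with a span of 1965857 bp, 227016 bp from a TSS (signal 60.8, with 36.5 and 27.0). The next, 82159 bp from a TSS, lay in lncRNA:flam, the flamenco locus known as a source of piRNAs, with a signal of 106 (49.9 and 50.5). Another in Myo81F was 80695 bp from a TSS (56.9, with 29.3 and 26.7). The one in flam was found in both replicates' own lists, while neither member in Myo81F was found in either.

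Members were denser on X than on the large autosome arms. There were 109 on X, or 13.6 per eligible Mb. The autosome arms 2L, 2R, 3L and 3R together held 258, or 7.83 per eligible Mb. Among the arms the density ran from 6.06 on 3R to 10.7 on 2L. Members found in replicate 1's own list stood at 7.12 per eligible Mb on X and 4.10 on the autosome arms, and those found in replicate 2's at 6.75 and 3.73. Candidates of any rank were about as dense on X (1055 per eligible Mb) as on the autosome arms (1042), and 1.33% and 0.801% of them reached the threshold. Chromosomes 4 and Y held 0 members, with 25 and 189 candidates. The densities were not tested, since members cluster.

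The members lay in 281 genes, of which 271 encode proteins. Of the 4224 protein-coding genes with any eligible sequence, these were 6.42%, and 2.77% (117 genes) held a member found in both replicates' own lists. Hosts were long, with a median span of 33750 bp and 21059 bp of eligible sequence, against 8197 bp and 1291 bp for eligible genes without a member. A region within 500 bp of a TSS of their own was found for 39 hosts (14.4%) and for 341 of 3953 genes without a member (8.63%). The share was also higher in hosts in each of 4 classes of eligible length. It was 15.8% against 8.96% in genes with up to 5000 bp and 15.1% against 8.58% in those with over 5000 and up to 20000 bp. With over 20000 and up to 50000 bp it was 13.5% against 7.43%, and in longer ones 13.7% against 4.31%. These shares were not tested. Most hosts (207 of the 271) held 1 member, 43 held 2 and 21 held 3 or more.

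kirre held the most members, 9, and encodes an immunoglobulin-type receptor of muscle founder cells that acts in myoblast fusion. Their signals were 144, 139, 135, 124, 93.4, 73.7, 68.9, 68.1 and 64.8, and they were spread over 310417 bp of a gene of 394149 bp. The member of 135 also lay in the span of CG32795. The strongest 4 were found in both replicates' own lists, with 66.1 and 82.9 in the replicates for the first of them (chrX:3097178-3097253). No region lay within 500 bp of a TSS of kirre. With 287530 bp of eligible sequence, its density was 31.3 per Mb.

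sbb held 6 members within 9694 bp, at signals from 89.3 to 290, and 4 of them were found in both replicates' own lists. That is 128 per eligible Mb, and sbb also had a region at a TSS of its own. Hr4 held 5 with signals from 55.5 to 239, of which 3 were found in both. Raf held 5 within 6414 bp, with signals from 76.6 to 384, of which only the strongest 2 were found in both. Of the 9 members of kirre, 4 lay within 5949 bp, and none of these 4 was found in both lists.

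Snoo, a gene of the Ski/Sno family of TGF-beta regulators, held 4 members from 79.1 to 134, of which 3 were found in both lists. shn (schnurri), a zinc-finger factor gene of Dpp signalling, held 4 from 71.5 to 86.3, and ush (u-shaped), the gene of a cofactor of GATA factors, held 4 from 70.1 to 89.8. None of the members of shn or ush was found in both lists. lncRNA:CR44357 also held 4, from 57.1 to 111.

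Another 16 genes held 3 members each. All 3 of ed (echinoid, a cell adhesion gene) were found in both lists, and the weaker 2 had signals of 99.8 and 95.2. mew, an integrin gene, had 127, 120 and 95.8, of which 2 were found in both. Members in both lists numbered 2 in CG12535, in lncRNA:CR44999, which shares the same sequence, in babos, in msn (misshapen, a kinase gene) and in Smr, the gene of a nuclear corepressor. They numbered 1 in Tlk, Ptp61F (a tyrosine phosphatase gene), cv-c, fz, hth (homothorax, a homeodomain factor gene) and lncRNA:CR32773. In NetA, a netrin gene, in Pvf3, which encodes a ligand of the PDGF and VEGF type, and in pigs, none was found in both lists, and their highest signals were 83.6, 85.2 and 72.2.

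**Figure D3:**
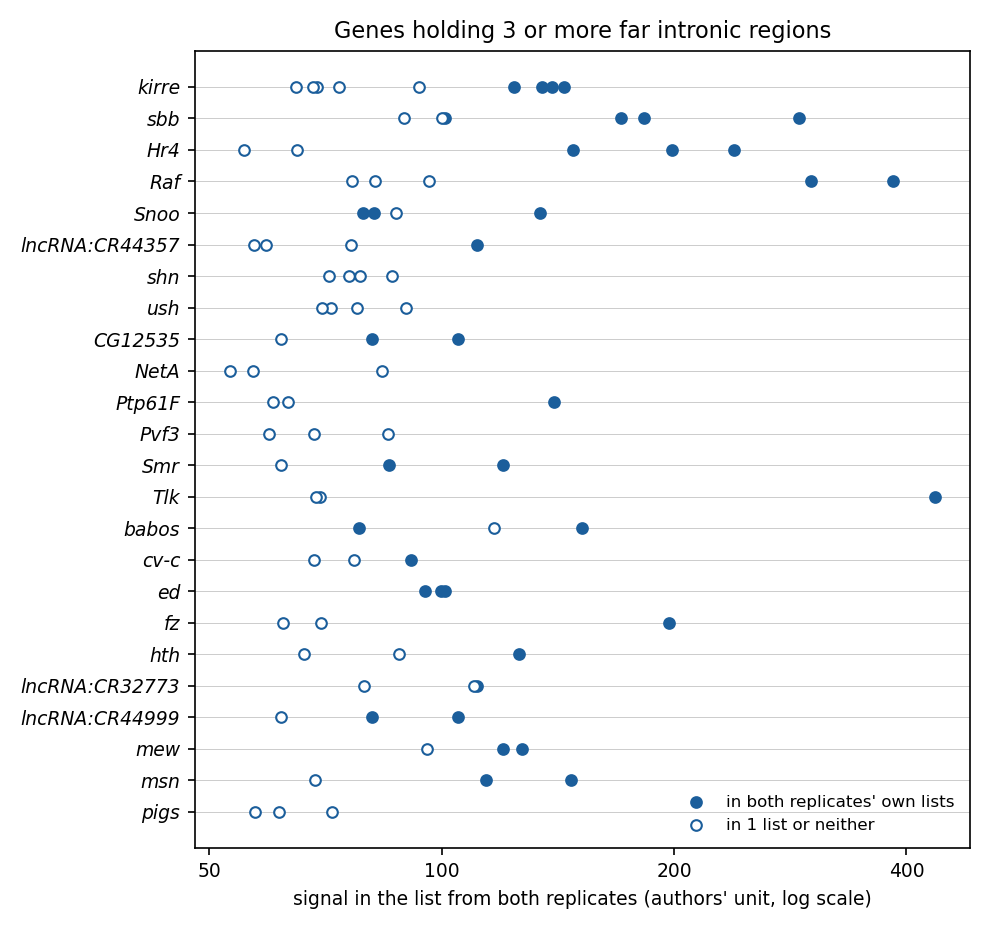
Signal of each member (horizontal axis, authors' unit, log scale) in the 24 genes that hold 3 or more members, with genes ordered by number of members from the top. Filled points were found in both replicates' own lists and open points in 1 list or neither; the 9 members of kirre run from 64.8 to 144 and the strongest point is that of Tlk at 435.

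Neighbouring members were common. A total of 106 members (28.9%) had another member under 10000 bp away, in 44 groups, 12 of which held 3 or more. The shortest group of 3 lay in Smr and covered 1220 bp, and the next in Tlk covered 1923 bp. In Tlk the group joined the strongest member of all to 2 of 69.6 and 68.8.

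Named groups of genes were chosen with earlier results of these data known, so they are not independent of these regions. They were compared with all protein-coding genes that had eligible sequence, of which 6.42% held a member. The other comparison was with the overall density of 8.67 members per eligible Mb. These are counts without a test, and the groups differ in gene length. The share of protein-coding genes with a member rose with eligible sequence. It was 1.35% with up to 5000 bp and 11.1% with over 5000 and up to 20000 bp. It was 21.6% with over 20000 and up to 50000 bp and 30.5% beyond. Members per eligible Mb fell from 13.7 to 4.64 over these classes. Median eligible sequence was 14528 bp in the signalling genes, 32017 bp in axon guidance genes and 3446 bp in neuropeptide genes. Groups were not matched for it. Genes of the Notch, EGFR, FGF, Wnt, Hedgehog and Dpp pathways stood at the highest density, 31.1 per eligible Mb, with a member in 14 of 49 genes (28.6%) and 27 members in all. Without Raf, which held 5 of them, the density was 26.1. Of the 49 genes, 8 (16.3%) held a member found in both lists, beside 2.77% of all genes.

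Ligands, receptors and downstream genes of these pathways were each among the hosts. dpp, the gene of the BMP-type ligand, held a member of 133 (55.3 and 74.4 in the replicates). sog, which encodes an antagonist of Dpp, held members of 138 (65.6 and 71.7) and 96.9 (58.7 and 39.4). N, the gene of the Notch receptor, held one of 162 (82.1 and 76.7), and mam (mastermind), the gene of its nuclear coactivator, held 2 of 131 (67.6 and 61.3) and 96.1 (45.4 and 54.9). The glypican gene dlp held one of 120 (50.3 and 64.9). Those of dpp, N and dlp, both of mam and the stronger of sog were found in both lists. Members of the other 6 genes, nkd, pnt, shn, tkv, Dad and dally, had signals from 49.5 to 90.0, and none was found in both lists.

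Muscle and myoblast fusion genes stood at 21.4 per eligible Mb, with 15 members in 4 of 27 genes (14.8%). Of these, 9 were in kirre, and without it the density was 14.5. The others lay in mew, in Mef2, the muscle factor gene, at 97.1 and 61.0, and in Zasp52 at 54.9. Transcription factors of embryonic patterning and cell fate stood at 13.4, with 24 members in 16 of 65 genes (24.6%). In both lists were members in aop, an ETS repressor gene of the EGFR pathway (158, with 69.6 and 87.9), grh (grainy head), an epidermal factor gene (130), hth (126), sr (stripe), a tendon cell factor gene (125), bi, a T-box factor gene (111), ftz-f1 (83.4) and luna (82.7), beside those in Hr3. Members in ush, Antp, pnt, Lim1, Eip74EF, Eip75B, psq and ab were not found in both.

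Glial and blood-brain barrier genes stood at 14.6 per eligible Mb, with 2 members in 2 of 18 genes (11.1%). Without Lac the density was 7.83. The members lay in Lac and Nrg at 55.1 and 56.8, and neither was found in either list.

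The remaining groups were below the overall density. Axon guidance and neuronal adhesion genes stood at 7.85 per eligible Mb, with 17 members in 10 of 47 genes (21.3%). In both lists were the members of ed, one in Sema1a, a semaphorin gene (157, with 67.7 and 90.0), and one in drl, which encodes a receptor of the Ryk family (129, with 56.6 and 63.0). Genes of the synapse and ion channels stood at 2.06, with 2 members in 43 genes (4.65%): one in Ih, a channel gene (149, with 77.8 and 66.8, found in both lists), and one in Ca-alpha1T (54.6). RNA-binding and splicing genes stood at 4.57, with 7 members in 5 of 27 genes, and those in shep (123) and heph (111) were found in both. Genes of neuropeptide processing, release and peptidergic cell fate had 1 member in 29 genes with eligible sequence (3.45%), at 2.97 per eligible Mb. It lay in Fur1, a furin-type convertase gene, with a signal of 93.0 (43.4 and 51.1), and was found in both lists (chr3R:25446103-25446406).

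Base content changed sharply at the summits. In the window of 50 bp on each side, the median GC content was 31.7% at member summits and 40.6% in a window centred 500 bp to a side, drawn at random for each member. The median difference within members was -8.91 percentage points, and GC content was lower at the summit in 268 of 367 members. Eligible positions had a median of 40.6%. At the summit 79.3% of members were under 40% GC, and 49.3% of eligible positions were. The dip was narrow and had shoulders. In shorter windows of 51 bp, mean GC content was 32.9% ± 10.4 (SD over 367 members) at the summit. It was 46.0% ± 10.2 at 150 bp to the right of the summit, 45.4% ± 10.5 at 150 bp to the left, and 41.6% at 500 bp on both sides. With 50 bp on each side, no summit window touched an exon, and 14 of the flank windows did.

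**Figure D4:**
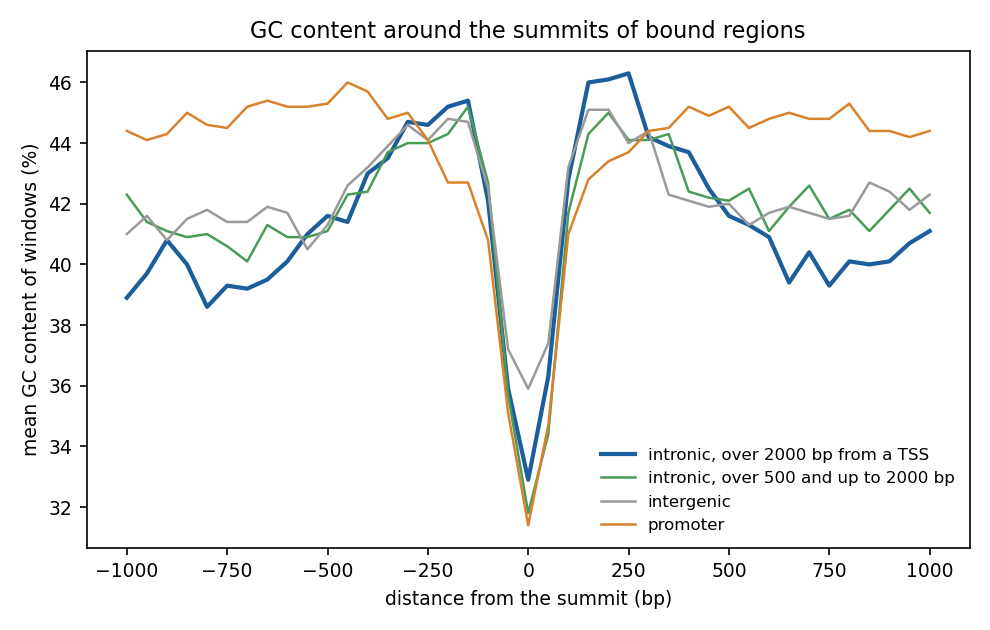
Mean GC content of windows of 51 bp (vertical axis, percent) by distance from the summit in bp (horizontal axis), for members and for 3 other classes of regions. Members fall to 32.9% at the summit, rise to 45.4% and 46.0% at 150 bp to its left and right, and stand at 41.6% at 500 bp.

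Other classes also dipped at the summit. The median was 30.7% at promoter summits (45.5% beside them), 31.7% in introns nearer to a TSS (41.6%) and 34.7% in intergenic regions (42.6%). Exonic regions, at 45.5% and 44.6%, did not dip. Among all candidates of the far intronic class, those that reached an IDR of 0.01 had a median GC content of 32.2% and those that did not, 44.6%. Members with a signal of 49.5 to 65.3 had a median of 35.6% and those above 117 had 30.7%. The part of GC content in the amplification or mapping of fragments was not tested. Among the lowest values were 17.8% at a member in sbb and 18.8% at a member in hth, and the highest were 65.3% at a member in Hipk, 63.4% at CG8745 and 62.4% at Calx.

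The 6-mers, counted as classes of a word and its reverse complement, followed the base content. An exact two-sided McNemar test over members, with Benjamini-Hochberg adjustment over all classes, called 31 classes higher at the summit than beside it (1.49% of those tested) and 12 lower (0.577%). Members are not replicates of a condition, so the p-values describe this list. TATTAA was found in 88 member windows at the summit and 36 beside it (24.0% and 9.81%, exact adjusted p = 7.73e-04). TTAAAA was found in 104 and 49 (28.3% and 13.4%, exact adjusted p = 7.73e-04) and AAATAT in 127 and 69 (34.6% and 18.8%, exact adjusted p = 0.00171). Of the 31 classes, 16 were made of A and T only, 10 had 5 such letters and 5 had 4. All 36 classes of A and T only were found more often at the summits. The number called higher was 6 with 1 member per gene, 2 among the 202 members over 5000 bp from a TSS and 137 with the flank 300 bp away.

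The other classes of smallest p were also rich in A and T. ATATTA was found in 24.0% of summit windows and 11.2% of flank windows, and CTATTA in 9.26% and 2.18%. The summit and flank counts were 98 and 51 for ATTTTA, 99 and 52 for ATTTAA, 77 and 36 for TATAAA, 100 and 55 for AAAATT, and 27.5% and 15.8% of windows for TAAATA. The classes called lower were led by GCTGGA (2 summit windows against 22, exact adjusted p = 0.0105), GACGGA (1 against 18), TGGCCA (3 against 23), GGCAAA (21 against 50) and AGACGG (1 against 14). CGGTTC was found at 0 summits and in 13 flank windows, and CTCTCC at 1 and in 16. The counts were 2 and 18 for CAGGCG and 2 and 17 for CCAGCC, with the same counts for CGACAG. Of the 12, 11 had at least 4 letters G or C.

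In replicate 1's own list of 215 far intronic regions, the same test called 18 classes higher (0.865%) and 7 lower (0.337%), and in replicate 2's list of 211 it called 12 higher (0.577%) and 3 lower (0.144%). Of the 31 classes called higher, 13 were also called in replicate 1's list and 12 in replicate 2's, and 31 and 30 had the same direction. The 12 classes called lower had the same direction in both lists. These lists come from the same libraries as the conservative list and are not independent of it.

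**Figure D5:**
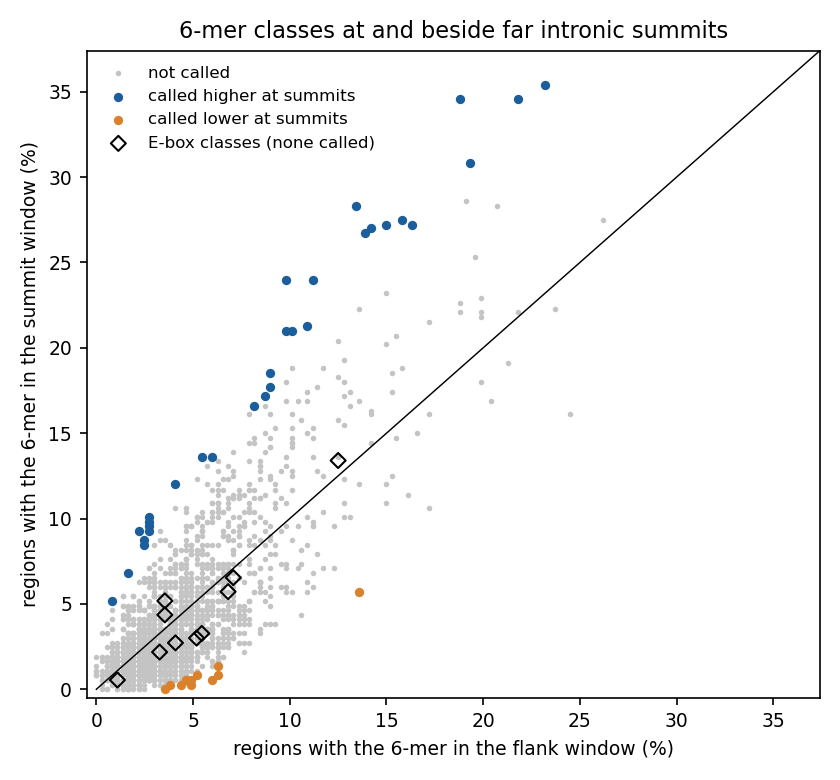
Share of members with each 6-mer class in the flank window (horizontal axis, percent) and in the summit window (vertical axis, percent); the line marks equal shares. The 31 classes called higher lie above the line and the 12 called lower lie under it, and the 10 E-box classes, drawn as open diamonds, lie close to it.

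No E-box class was called. Of the 10 classes of CANNTG, 0 passed the exact McNemar test, and 0 had an unadjusted p under 0.05. CATATG was found at 11 member summits and in 19 flank windows (exact adjusted p = 0.583), and the ratio of members with it only at the summit to those with it only in the flank was 0.579 (exact 95% interval 0.249 to 1.28). CAGCTG gave the same ratio, with 12 summit windows and 20 flank windows. CAGATG, at 19 and 13, had a ratio of 1.46 (0.685 to 3.22), and CAAATG, the most frequent, at 49 and 46, had 1.08 (0.677 to 1.72). These intervals hold ratios both above and below 1, so neither a gain nor a loss of E-boxes at the summits was detectable against these flanks. The flanks were not matched for base content, with a median GC content of 40.6% against 31.7% at the summits. Each E-box holds a C and a G, and the part of base content in these counts was not tested. Any E-box was found at 37.1% of member summits, 43.3% of flank windows and 39.2% of eligible positions. In replicate 1's own list CACATG had an unadjusted exact p of 0.00131 (3 summit windows against 17) and did not pass adjustment (exact adjusted p = 0.0780).

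The members with CATATG at the summit ranged from strong to weak, and the 7 whose sequence can be set out are given because CATATG is known as a preferred E-box of Mist1, the mouse relative of dimm. CATATG was about as frequent at member summits as at eligible positions, as given above. Capitals mark CATATG only, and each line gives 31 bases of the plus strand. Other E-boxes are left in lower case, such as caagtg and catttg on either side of CATATG in Hr4 and caaatg in upSET.

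Hr4, chrX:1947716-1947746: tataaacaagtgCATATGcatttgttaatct
upSET, chr3L:14005095-14005125: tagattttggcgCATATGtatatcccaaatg
ATP7, chrX:11857697-11857727: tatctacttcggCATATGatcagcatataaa
mew, chrX:13251540-13251570: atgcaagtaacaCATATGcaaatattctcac
kirre, chrX:3018753-3018783: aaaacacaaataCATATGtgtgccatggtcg
pigs, chrX:6615688-6615718: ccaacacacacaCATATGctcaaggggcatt
Invadolysin, chr3R:10154474-10154504: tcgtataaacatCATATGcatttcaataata

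The first of these, in Hr4, had its CATATG start 7 bp to the left of the summit and was found in both replicates' own lists, with a signal of 239 (117 and 119). ATP7, a copper transporter gene (132, with 82.4 and 50.4), and mew (120) were also found in both. The member in upSET, described above, was found in replicate 2's list only. Those in kirre (68.9), pigs (61.6) and Invadolysin (56.4) were found in neither list. A further 4 members with CATATG had signals from 56.5 to 82.7, of which the one in luna was found in both.

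Other motifs listed for these members gave differences without a test. GAGAG, the core of sites of GAGA factor, was found at 28 summits and in 66 flank windows, with 11.5% among eligible positions, and the counts were 18 and 37 in replicate 1's own list and 14 and 45 in replicate 2's. CACACA was found at 27 and 39, with 7 and 30 and with 12 and 28 in the replicates' own lists. AGATAA was found at 34 and 20, with 15 and 13 in replicate 1's own list and 20 and 14 in replicate 2's. The longer motif CACTTGA, which contains an E-box, was found at 12 and 5, with 8 and 3 and with 5 and 4 in the replicates' own lists. TAATTA was found at 31 and 29, TGGGAA at 14 and 23 and CAGGTA at 10 and 5. The replicates' own lists differed in direction for TGGGAA, with 8 and 21 in replicate 1's and 16 and 10 in replicate 2's. TGACTCA was found at 4 and 2, AACCGGTT at 1 and 1, and GGTCACACT at 1 and 0. TATCGATA, the site of the DREF factor, was found at 1 member summit (0.272%) and at 11 promoter summits (1.46%). Each motif was sought on both strands, and a match is a description only.

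The members were compared with other classes of regions by a two-sided Fisher's exact test per class of 6-mers at the summit. Against promoter regions 0 classes were called (0%), with 76 higher and 50 lower in members at an unadjusted p under 0.05. The smallest p values were those of TTAAAA (28.3% of members, 40.6% of promoter regions) and of the E-box CAGATG (5.18% and 1.19%), and both had an exact adjusted p of 0.102. With windows of 100 bp on each side 28 classes were called, 15 of which were higher at promoters, and with windows of 25 bp on each side 3 were. Of the 15, 14 were made of A and T only. Those higher in members included ACTGAG (16.9% against 7.43%) and GTGCAC (16.6% against 8.22%). Against introns nearer to a TSS 0 classes were called (0%; 32 higher and 40 lower at an unadjusted p under 0.05), and against intergenic regions 0 (0%; 36 and 46).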

How the data were processed

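The data were 2 biological replicates of 1 group. The authors deposited peak lists on build dm6, per the labels; the aligner, the caller, library depth and the normalization are each not given in the sources used here. The signal of each peak and the −log10 global IDR of each candidate are values the authors deposited, the IDR threshold being 0.01 (a −log10 of 2). Values of a replicate come from its own ranked list.

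The main chromosomes held 1770 peaks, and those that overlapped by at least 1 bp were joined, giving 1739 regions. The same overlap was needed with a replicate's list. The gene annotation was that of Ensembl release 115 (BDGP6.54) without transposable elements, and bases were those of the RefSeq Release 6 genome; 99.88% of 16237 annotated start codons read ATG in it. Coordinates are 1-based. In 6-mer tests (Python 3.11.15, scipy 1.17.1) a class was called at an adjusted p under 0.05. The tests were tested on simulated data in which both sets of windows had the same base composition before classes were planted. A difference in GC content like that between member summits and flanks was not simulated. How small a difference in share these tests can call is not given here, so 0 called classes do not show equal shares. Intervals cover counting error only, and p-values measure only the spread over regions. The members, gene lists and tests were chosen with earlier results of these data known.

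The genes named were the 25 strongest members, each gene with 3 or more members, genes of the lists with a member in both replicates' own lists, and the 3 members nearest to each side of the 2000 bp limit; 6-mers were the 10 of smallest adjusted p in each direction and the 10 E-boxes. List genes without a member in both lists and other extremes were named after their values were seen. The symbols cut, Dl, nos, Ptprn and col had no single match. Alternatives were other distances to a TSS, windows, flanks, overlap rules, lists and thresholds, and leaving out each replicate. A selection of the summit windows is printed, and the results of 1 gene list are not reported here.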

Additional observations from a re-analysis of the deposited data

How the results depend on the processing

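With the TSS over 5000 bp away there were 202 members in 163 genes, 65 of them found in both lists. Without 1 replicate, that is, in the other's own list, there were 211 to 215 members in 180 to 182 genes. Other rules for members gave 377 to 516, within 1.5 times the 367 reported. The 31 classes of 6-mers called higher became 8 with 25 bp on each side of the summit, 62 with 100 bp, 137 with the flank 300 bp away, 12 with it 1000 bp away, 7 in the stronger 50% of members, 6 with 1 member per gene and 2 with the TSS over 5000 bp away, and 12 to 18 without 1 replicate. The 12 called lower became 0, 26, 106, 5, 1, 1 and 0 in the same order, and 3 to 7 without 1 replicate. With the flank on the other side (a setting chosen after seeing the data) 38 were called higher and 17 lower, of which 18 and 2 were among the 31 and the 12. No E-box class was called lower by the exact McNemar test in any of the 11 settings, and at most 1 had an unadjusted p under 0.05. The median GC difference was -9.80 with 25 bp on each side, -5.47 with 100 bp, -12.9 and -6.93 with the flank 300 and 1000 bp away, -9.90 in the stronger 50% of members, and -9.90 and -10.9 without replicate 1 and replicate 2. Against promoter regions 3 classes were called with 25 bp on each side, 28 with 100 bp and 0 in the other settings. The share of candidates that reached the threshold was 1.10% and 0.721% with the TSS over 1000 and 5000 bp away, and 1.89% and 0.291% at an IDR of 0.05 and 0.001. The cause of these changes was not tested. The depth of the libraries is unknown, so no limit could be drawn from it.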

Other observations

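Genes of nuclear receptors and the ecdysone response, a list chosen after the values were seen, held 14 members in 7 of 20 genes with eligible sequence (35.0%, against 6.42% of all such protein-coding genes), at 25.1 per eligible Mb against 8.67. Without Hr4, which held 5, the density was 17.6. A member found in both replicates' own lists was held by 5 of the 20 genes: Hr3, Hr4, Eip63E, ftz-f1 and E23, the last an ecdysone-induced gene of an ABC transporter with a signal of 127 (68.8 and 60.0 in the replicates). In Hr3 a weaker second member had 117, with 41.1 and 76.4. Members in Eip74EF (84.3) and Eip75B (92.3 and 64.5) were not found in both lists. The 20 genes had a median of 18504 bp of eligible sequence, and the comparison was not matched for it. No test was made, since the list was made from these values.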
